A study of Caenorhabditis elegans with 8 samples.

Results

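The sarcomere genes of Caenorhabditis elegans encode the filaments of muscle and the structures that hold these filaments in place, and they were drawn from the deposited count table by name. The set took in every gene whose symbol starts with myo, mlc, tni, tnt, tnc, atn or clik, together with a list of named genes such as unc-54, unc-15, unc-22, lev-11, ttn-1 and the actin genes act-1, act-2, act-3 and act-4. The rule itself uses names and no measured value, although it was set with earlier results of these data known. The set comprised 50 of the 46928 genes of the table. Of these, 14 were grouped as thick filament genes, 21 as thin filament genes, 4 as giant or immunoglobulin-repeat genes, 8 as attachment genes and 1 as a myosin chaperone. The remaining 2, mlcd-1 (malonyl-CoA decarboxylase) and mlck-1 (a relative of myosin light chain kinase), matched by their letters only. Without them the counts called by edgeR's quasi-likelihood test in the fit of all 8 libraries were the same, and mlck-1 was among the genes called between the replicate sets under some of the alternatives.

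RNA had been sequenced from whole worms of the wild-type strain N2, kept on OP50 bacteria at 20 °C. In 4 populations the growth medium contained 50 μM urolithin A (UA), a metabolite made by gut bacteria that is known to induce mitophagy, and another 4 populations, labelled untreated, were the controls. Both groups shared the same unmodified genotype, and each library came from a separate population. The sources disagree on the age at harvest: the paper's methods give day 1 of adulthood, and the series record gives day 4, with UA present since the L4 larval stage.

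In nematode muscle, as in other striated muscle, myosin in thick filaments pulls on actin in thin filaments, and calcium switches this pull on through troponin and tropomyosin. Dense bodies and M-lines tie the filaments through integrin to the cell membrane and the matrix outside it, so that force reaches the cuticle. Body wall muscle moves the animal, whereas the pharynx, a pumping organ with partly separate myosin and troponin genes, takes up food.

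The libraries held 41890058 to 43055719 counts on genes. All 50 sarcomere genes passed the filter on low counts, which left 13720 genes to be tested. In the principal components of these data, replicates 1 and 2 of both conditions lay apart from replicates 3 and 4, a grouping that the labels do not name. The effect of UA is therefore given over all 8 libraries and also within each of these sets, together with a test of the difference between them. In RNA of whole animals, a smaller share of muscle in the total RNA and lower expression within muscle cells cannot be told apart.

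Before any comparison, 2 libraries stood apart for the sarcomere genes, and they carried opposite labels. UA 2 was the lowest of the 8 libraries for 21 of the 50 genes, against 13% of all genes tested, and control 3 was the lowest for 14 of 50, against 16.8%. Control 1 and UA 4 were the lowest for 0 of 50, against 11.6% and 10.9%. The median log2 level of the sarcomere genes, relative to the mean of the 8 libraries, was -0.28 in UA 2 and -0.15 in control 3, and it lay between -0.061 and 0.15 in the other 6 libraries. All genes tested had medians of 0.0029 in UA 2 and -0.0046 in control 3. Counts of genes called by edgeR's quasi-likelihood test without a replicate block are also given with each library left out. DESeq2 and the replicate block were run on all 8 libraries only, so their calls were not checked without UA 2 or control 3.

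**Figure D1:**
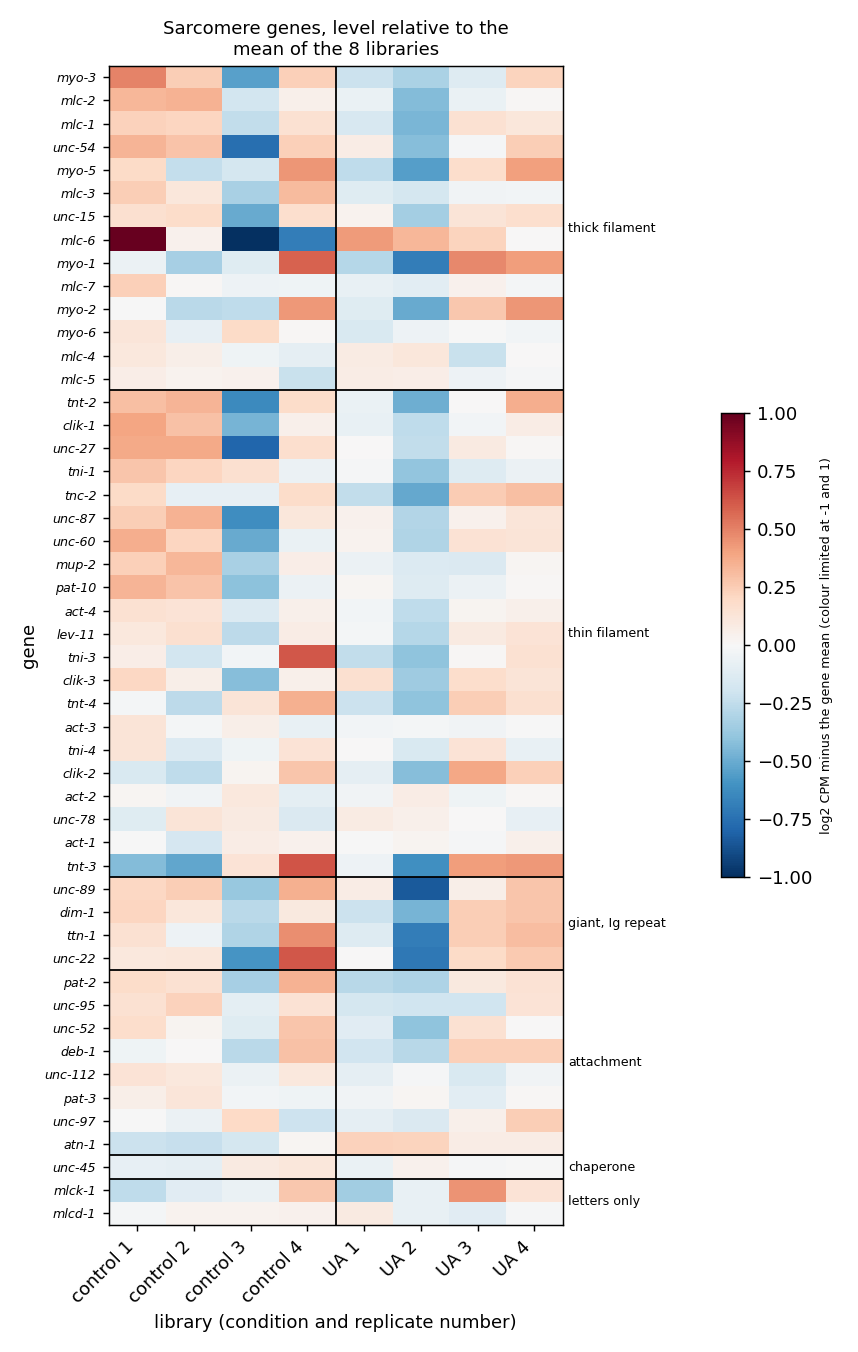
Level of each of the 50 sarcomere genes (rows, grouped by role) in each of the 8 libraries (columns), as log2 CPM minus the mean of that gene over the 8 libraries, with colours limited at -1 and 1. The columns of control 3 and UA 2 are blue for most filament and giant protein genes, whereas atn-1 is red in the 4 UA columns.

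The genes spanned a wide range of levels. Divided by the exon length in the table, the level ran from 0.247 CPM (counts scaled to the same library total) per kilobase for ttn-1, a titin-like giant with 56040 exon bases, to 1092 CPM per kilobase for the actin gene act-2. Exon length had a median of 1694 bases in the set, against 1377 over all genes tested. Of the 50 genes, 15 (30%) lie on chromosome X, which holds 14.7% of the genes tested, and 2 (4%) lie on chromosome II, which holds 17.3%. Neighbouring copies occur: act-1, act-2 and act-3 lie between 11071690 and 11082415 on chromosome V, and mlc-1 and mlc-2 lie between 17455792 and 17460778 on chromosome X (WBcel235). How reads that match more than one copy were counted is not given in the sources used here, so the values of the actin genes and of mlc-1 and mlc-2 singly are uncertain.

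Over all 8 libraries, UA was not associated with a called change in any sarcomere gene. By edgeR's quasi-likelihood test with Benjamini-Hochberg adjustment over all genes tested, 0 of 50 passed an adjusted p of 0.05, where 0.0948% of all genes did. At an unadjusted p under 0.05 there were 3 (atn-1, tni-1 and unc-112), against 7.25% of all genes, and DESeq2 called 1, atn-1, against 1.2%. The study itself used a fold change over 1.2 at an unadjusted p under 0.05 from DESeq2. Here these thresholds were applied to edgeR's quasi-likelihood test, so the genes that pass need not be those of the study. At them atn-1 was higher, against 4.12% of all genes, and tni-1 was lower, against 1.55%. The 4 UA values lay all above the 4 control values for 1 of 50 genes, atn-1 (3.06% of all genes), and all below them for 0 of 50 (1.72%).

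The estimates leaned downward without passing the test. The log2 fold change was below 0 for 38 of 50 genes, where 51.1% of all genes were below 0, and its median was -0.074, where that of all genes was -0.00295. The lean depended on single libraries: without UA 2 the median was 0.0061 and 23 of 50 genes were below 0, and without control 3 the median was -0.13 and 40 of 50 were below 0.

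The replicate sets differed in the direction of these estimates. In replicates 1 and 2, 41 of 50 genes had a log2 fold change below 0 (52.7% of all genes), with a median of -0.29. In replicates 3 and 4, 17 of 50 genes were below 0 (48.7% of all genes), with a median of 0.11. Compared number by number, the UA library was below the control library of the same number for 43 of 50 genes in replicate 1, 40 in replicate 2, 14 in replicate 3 and 26 in replicate 4, where the shares over all genes were 53.1%, 50.8%, 49.4% and 49.8%. The median log2 differences were -0.22, -0.34, 0.31 and -0.0041, so that replicate 3, which holds the low control library, was the one with UA on the higher side.

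**Figure D2:**
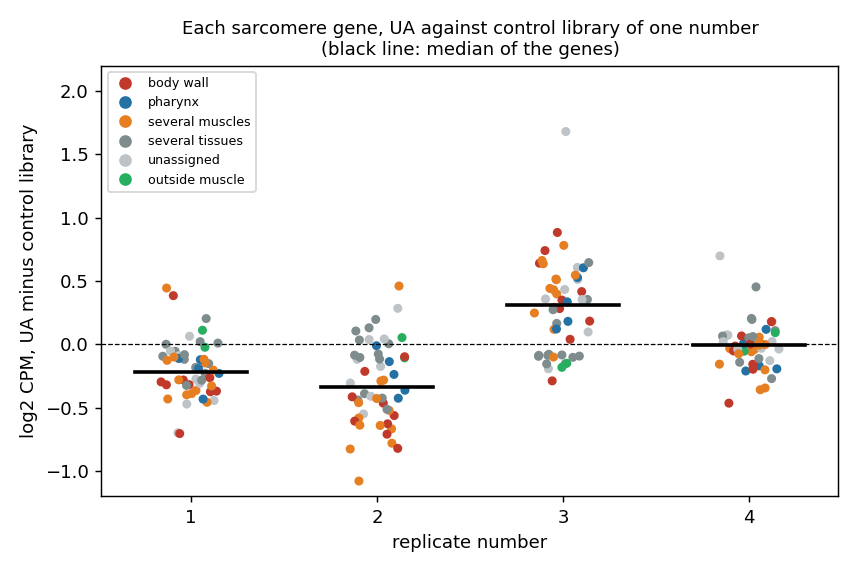
Log2 CPM of the UA library minus that of the control library with the same replicate number (y axis) for each of the 50 sarcomere genes (points, coloured by the tissue in which the gene is known to be used), by replicate number (x axis), with the median of the genes as a black line. The medians are -0.22, -0.34, 0.31 and -0.0041 for replicates 1, 2, 3 and 4.

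Within replicates 1 and 2, 2 of the 50 genes were called by edgeR's quasi-likelihood test in the fit of all 8 libraries. The light chain gene mlc-2 fell, against 0.751% of all genes, and the alpha-actinin gene atn-1 rose, against 1.46%. At an unadjusted p under 0.05 with a fold change over 1.2, 17 of 50 were lower, against 4.07% of all genes, and 1 was higher, against 5.98%. Both UA values lay below both control values for 31 of 50 genes, against 25.6% of all genes. DESeq2 called 8 genes, 7 of them lower, against 1.17% of all genes. When the replicate number was a block, 7 genes were called: atn-1 (adjusted p = 0.0173) rose, and mlc-2 (0.01), clik-1 (0.0234), pat-10 (0.0332), myo-3 (0.0348), mlc-1 (0.0385) and dim-1 (0.0427) fell, where 1.31% of all genes rose and 0.809% fell in that fit. Neither DESeq2 nor the block was run with a library left out, and the counts that follow are those of edgeR without the block. Without control 1, control 2 or UA 2 the count of called genes was 0, without UA 1 it was 1, and without control 3 or control 4, which enter only through the shared spread, it was 15, of which 14 were lower, against 1.78% and 1.73% of all genes. The median without UA 2 was -0.18, still with 39 of 50 genes below 0.

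Within replicates 3 and 4, 0 of 50 genes were called by edgeR's quasi-likelihood test (0.488% of all genes) or by DESeq2, and 3 had an unadjusted p under 0.05 (8.97% of all genes), namely dim-1, mlc-6 and unc-60, each on the higher side. The count rested on which control was kept. Without control 4, so that UA 3 and UA 4 met control 3 alone, 16 genes were called higher, against 4.12% of all genes, and without control 3, 1 gene was called lower, mlc-3, against 0.251%, with a median over the set of -0.031.

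Whether UA acted differently in the 2 sets was tested for each gene and the test passed for 0 of 50 (edgeR's quasi-likelihood test, 0.0802% of all genes). At an unadjusted p under 0.05 there were 18 genes, against 8.55% of all genes, and DESeq2 called 5 (clik-1, dim-1, mlc-1, mlc-2 and pat-10), against 0.525%. The estimates were on the side of a lower UA effect in replicates 1 and 2 for 42 of 50 genes, where 52.2% of all genes were, with a median difference of -0.38. Without control 4 the count of called genes was 21, against 2.66% of all genes, and it was 0 without any other single library.

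**Figure D3:**
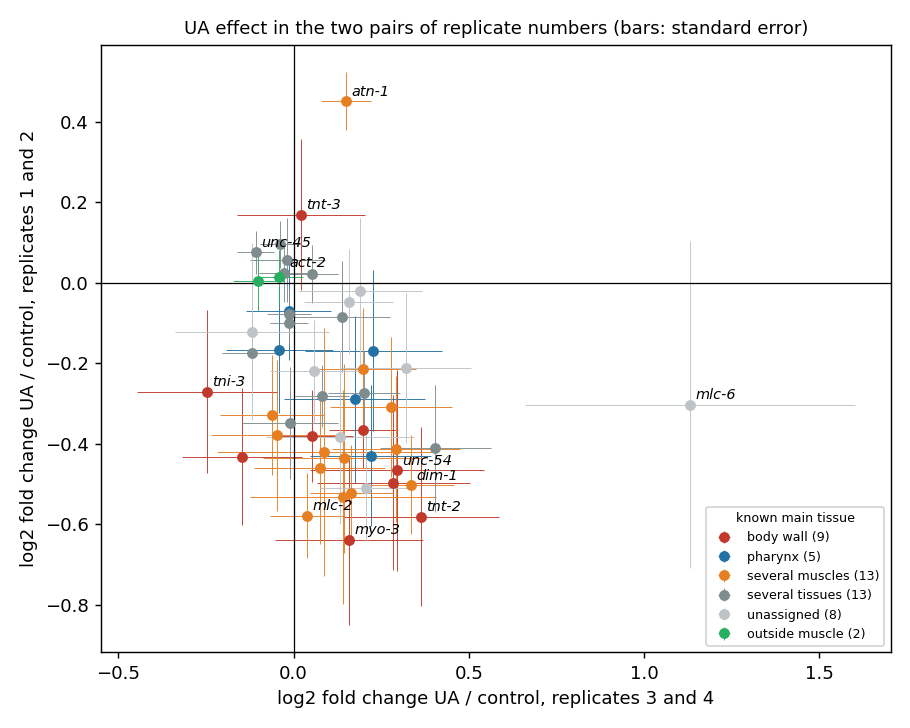
Log2 fold change of UA against control in replicates 3 and 4 (x axis) and in replicates 1 and 2 (y axis) for each of the 50 sarcomere genes, with standard errors as bars and colours for the known main tissue. Of the points, 41 lie below the horizontal line at 0 and 33 lie to the right of the vertical line at 0, and atn-1 stands alone at the top with 0.45 in replicates 1 and 2.

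Among the thick filament genes, the body wall muscle myosins were highest in control 1 and lowest in control 3. The major heavy chain of body wall muscle, unc-54, stood at 271, 261, 127 and 253 CPM in control 1 to 4 and at 226, 160, 212 and 253 CPM in UA 1 to 4. Its UA values lay inside the range of the controls, and its log2 fold change was -0.10 ± 0.22 (SE) over all libraries, -0.47 ± 0.25 in replicates 1 and 2 and 0.30 ± 0.25 in replicates 3 and 4. The minor heavy chain myo-3, which forms the middle of the thick filament, stood at 30.0, 25.3, 14.6 and 25.1 CPM in control 1 to 4 and at 18.4, 17.1, 19.5 and 24.9 CPM in UA 1 to 4. Its UA values in replicates 1 and 2 were both below its control values, with a log2 fold change of -0.64 ± 0.21 (adjusted p = 0.192 by edgeR's quasi-likelihood test, 0.0348 with the replicate block).

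The ratio of the heavy chains varied less between libraries than their levels did. Per kilobase, unc-54 exceeded myo-3 by a factor of 9.38 ± 0.763 (SD, n = 4) in control and 10.5 ± 1.23 in UA libraries, and the ranges of the libraries overlapped. Control 3 held 50.4% of the unc-54 level of control 4, 58.1% of its myo-3 level and 62.6% of its level of unc-15, the paramyosin that forms the filament core. The ratio of unc-54 to unc-15 per kilobase was 0.924 ± 0.114 in control and 0.886 ± 0.0626 in UA libraries.

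The light chain gene mlc-2 was the one filament gene called in replicates 1 and 2 by the main edgeR fit (all 8 libraries, TMM scaling, low counts filtered, no block). Other edgeR settings called more, and with the replicate block mlc-1, myo-3, clik-1 and pat-10 were called as well. The mlc-2 gene encodes a regulatory light chain of muscle myosin and lies on chromosome X, 17455792 to 17456586, minus strand. It stood at 151, 153, 106 and 124 CPM in control 1 to 4 and at 115, 89.1, 115 and 121 CPM in UA 1 to 4. Controls 1 and 2 were the highest of the 8 libraries and UA 2 the lowest, while the other UA libraries lay between control 3 and control 4. The log2 fold change was -0.58 ± 0.11 in replicates 1 and 2 (adjusted p = 0.0177), 0.038 ± 0.11 in replicates 3 and 4 (0.94) and -0.28 ± 0.13 over all libraries (0.694), and the difference between the sets was -0.62 ± 0.15 (0.221), all by edgeR's quasi-likelihood test. Without control 1, control 2 or UA 2 the adjusted p in replicates 1 and 2 was 0.103 to 0.136. A gene on the opposite strand overlaps 77 of its 641 exon bases, and the strand setting of the counting is not given in the sources used here.

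Its neighbour and near-copy mlc-1 had a similar profile at a lower level, with 90.2, 89.2, 64.7 and 85.6 CPM in control 1 to 4 and 68.9, 56.1, 85.2 and 83.2 CPM in UA 1 to 4. Its log2 fold change in replicates 1 and 2 was -0.52 ± 0.12 (adjusted p = 0.0529, or 0.0385 with the replicate block). The essential light chain mlc-3 stood at 81.9 to 128 CPM in control and at 90.9 to 101 CPM in UA libraries, with the lowest value of all in control 3.

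The light chains used outside the sarcomere did not share this profile. The gene with the most counts per length among the thick filament genes was mlc-4, a regulatory light chain of non-muscle myosin, at 249 ± 15.1 CPM per kilobase (SD, n = 4) in control and 247 ± 25.0 in UA libraries. In CPM it stood at 186, 181, 168 and 164 in control 1 to 4 and at 184, 188, 149 and 174 in UA 1 to 4, so that the groups overlapped and control 3 was not low. The essential light chain mlc-5, which serves non-muscle myosin as well, stood at 98.8 to 120 CPM in control and at 111 to 121 CPM in UA libraries.

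The pharyngeal heavy chains myo-1 and myo-2 were lowest in UA 2, and the order of the other libraries differed from that of the body wall chains. The level of myo-1 was 21.9, 18.1, 20.9 and 34.2 CPM in control 1 to 4 and 18.7, 14.1, 31.7 and 30.4 CPM in UA 1 to 4. That of myo-2 was 27.9, 23.3, 23.5 and 37.9 CPM in control 1 to 4 and 25.8, 19.8, 33.8 and 38.1 CPM in UA 1 to 4. For both genes control 4, UA 3 and UA 4 were the 3 highest libraries, and control 3 lay between control 2 and control 1. Per kilobase, myo-2 exceeded myo-1 by a factor of 1.22 ± 0.096 (SD, n = 4) in control and 1.3 ± 0.158 in UA libraries. Over all libraries their log2 fold changes were -0.0032 ± 0.27 and 0.061 ± 0.21.

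Of the other thick filament genes, myo-5 stood at 9.41 to 15.1 CPM in control and 7.61 to 14.8 CPM in UA libraries, and myo-6, mlc-6 and mlc-7 averaged 2.14, 0.693 and 10.1 CPM in control. The faintest, mlc-6, varied most, from 0.241 CPM in control 3 to 1.44 CPM in control 1, and its log2 fold change in replicates 3 and 4, 1.13 ± 0.47, had an adjusted p of 0.523. The thick filament group includes mlc-4, used outside muscle, and mlc-5, used in several tissues. Over its 14 genes, 0 passed over all libraries (0.0948% of all genes) and 11 had a log2 fold change below 0 (51.1%). In replicates 1 and 2, 1 fell (0.751% of all genes) and 12 were below 0 (52.7%), with a median of -0.31. In replicates 3 and 4, 0 passed (0.488% of all genes) and 3 were below 0 (48.7%), with a median of 0.15.

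**Figure D4:**
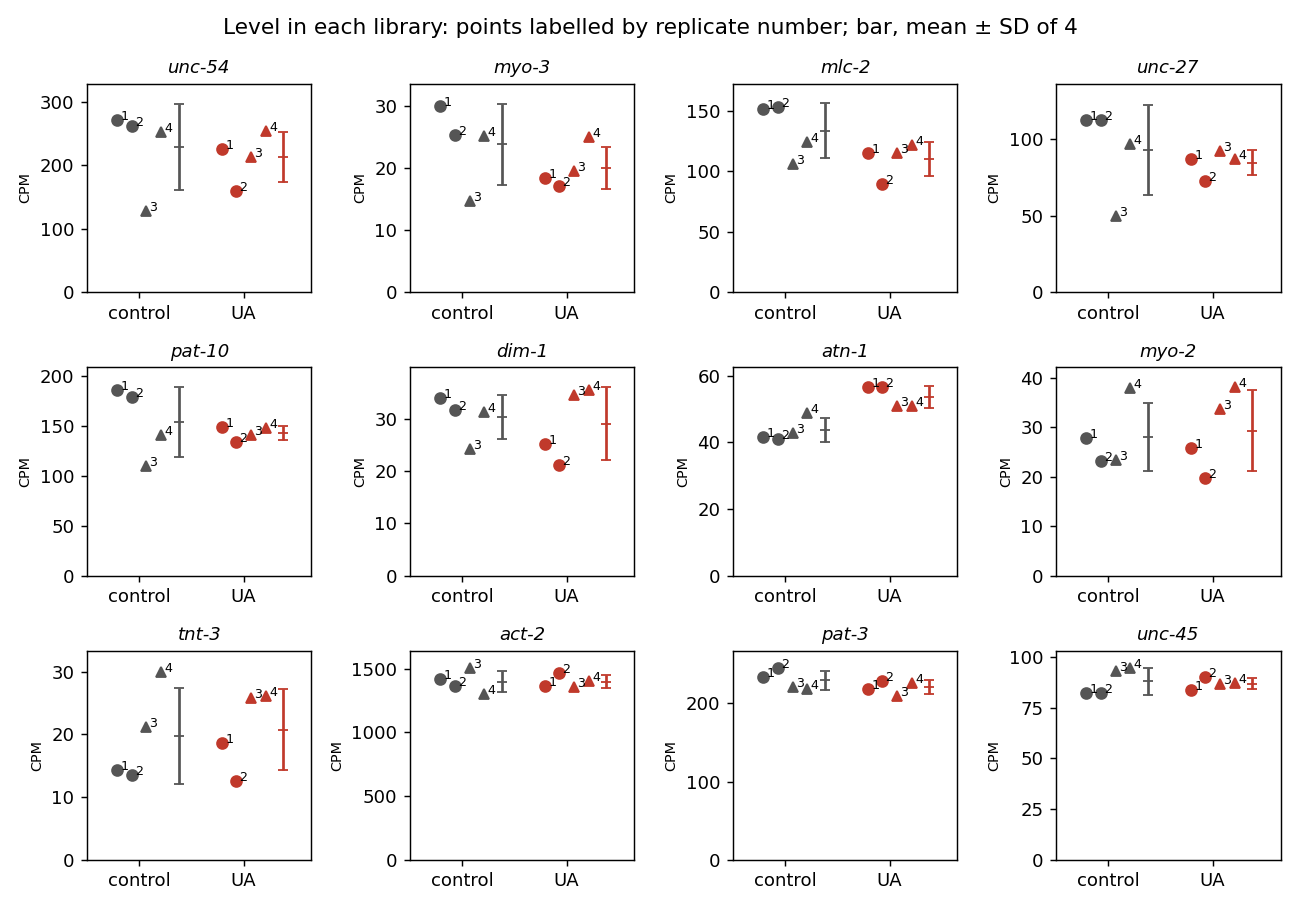
CPM of 12 sarcomere genes in each library (circles, replicates 1 and 2; triangles, replicates 3 and 4; grey, control; red, UA; the number beside a point is the replicate), with the mean and SD of the 4 libraries as bars, on axes that start at 0. Control 3 is the lowest control for unc-54, myo-3, mlc-2, unc-27, pat-10 and dim-1, and atn-1 is the one gene shown whose UA values lie all above its control values.

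The actin genes, which form the thin filament itself, were not low in control 3 or UA 2 apart from act-4. The level of act-2, the most abundant gene of the set per length, was 1420, 1365, 1506 and 1305 CPM in control 1 to 4 and 1367, 1468, 1353 and 1407 CPM in UA 1 to 4. Control 3 was the highest library, UA 2 came second and the groups overlapped, with a log2 fold change of -0.00017 ± 0.057 over all libraries. The level of act-1 was 149 to 176 CPM in control and 166 to 173 CPM in UA libraries, and that of act-3 was 121 to 139 and 124 to 127 CPM. By contrast, act-4 stood at 272, 268, 222 and 253 CPM in control 1 to 4 and at 239, 205, 249 and 253 CPM in UA 1 to 4, with UA 2 lowest and control 3 second lowest. The log2 fold change of act-4 in replicates 1 and 2 was -0.28 ± 0.077 (edgeR, adjusted p = 0.109, or 0.0836 with the replicate block).

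The troponin and tropomyosin genes, which make contraction depend on calcium, were lowest in control 3 or in UA 2, depending on the gene. Among the body wall genes, unc-27 (troponin I) stood at 113, 113, 50.0 and 97.2 CPM in control 1 to 4 and at 86.9, 73.0, 92.3 and 87.1 CPM in UA 1 to 4, so that control 3 held 51.4% of the level of control 4. The troponin T gene tnt-2 stood at 47.6, 48.8, 24.9 and 44.0 CPM in control 1 to 4 and at 36.8, 27.6, 38.8 and 49.8 CPM in UA 1 to 4. The troponin C gene pat-10 stood at 186, 179, 111 and 141 CPM in control 1 to 4 and at 149, 134, 141 and 148 CPM in UA 1 to 4. In each of these 3 genes control 3 was the lowest of the 8 libraries, and the groups overlapped.

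Their log2 fold changes in replicates 1 and 2 were -0.50 ± 0.22 for unc-27, -0.58 ± 0.22 for tnt-2 and -0.37 ± 0.096 for pat-10. By edgeR's quasi-likelihood test the adjusted p was 0.347, 0.272 and 0.0877, and with the replicate block it was 0.286, 0.0582 and 0.0332. In replicates 3 and 4 the estimates had the other sign, at 0.28 ± 0.22, 0.36 ± 0.22 and 0.20 ± 0.096, with adjusted p-values of 0.739, 0.683 and 0.596. The troponin T gene mup-2 stood at 31.8 to 50.1 CPM in control and at 36.1 to 40.3 CPM in UA libraries, again with control 3 lowest.

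The troponin I gene tni-1 was the one filament gene that met the paper's thresholds over all libraries when they were applied to edgeR's quasi-likelihood test (unadjusted p = 0.0492). It stood at 7.25, 6.96, 6.70 and 5.77 CPM in control 1 to 4 and at 5.97, 4.57, 5.48 and 5.77 CPM in UA 1 to 4. The 3 highest libraries were controls, control 4 lay among the UA libraries, and control 3 was not low. The log2 fold change was -0.29 ± 0.13 over all libraries with an adjusted p of 0.686 (edgeR), and -0.43 ± 0.17 and -0.15 ± 0.17 in replicates 1 and 2 and in replicates 3 and 4. Another troponin I gene, tni-3, stood at 7.28 to 12.7 CPM in control and at 6.28 to 9.23 CPM in UA libraries, and both were lowest in UA 2.

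The body wall troponin T gene tnt-3 was also lowest in UA 2. It stood at 14.3, 13.5, 21.2 and 29.9 CPM in control 1 to 4 and at 18.6, 12.6, 25.8 and 26.1 CPM in UA 1 to 4. The 4 libraries of replicates 3 and 4 were all above the 4 of replicates 1 and 2, and the conditions overlapped, with a log2 fold change of 0.075 ± 0.29 over all libraries. The pharyngeal troponin genes tnc-2, tni-4 and tnt-4 averaged 5.84, 23.2 and 7.72 CPM in control and 5.57, 22.5 and 7.23 CPM in UA libraries, each with its lowest value in UA 2. Tropomyosin, from lev-11, stood at 126 to 169 CPM in control and at 124 to 166 CPM in UA libraries, with its 2 lowest values in UA 2 and control 3.

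Several genes of proteins that bind or remodel the thin filament were low in control 3. The calponin-like unc-87, which bundles actin, stood at 98.5, 105, 53.97 and 89.4 CPM in control 1 to 4 and at 85.5, 67.5, 85.4 and 90.2 CPM in UA 1 to 4. The calponin-like clik-1 stood at 105, 97.7, 57.7 and 82.5 CPM in control 1 to 4 and at 75.4, 66.7, 77.9 and 83.8 CPM in UA 1 to 4. The highest value of both genes lay in control 1 or control 2 and the lowest in control 3. The log2 fold change of clik-1 in replicates 1 and 2 was -0.51 ± 0.13 (edgeR, adjusted p = 0.0821, or 0.0234 with the replicate block) and in replicates 3 and 4 it was 0.21 ± 0.13 (0.694, or 0.504). The ADF/cofilin gene unc-60, whose product severs actin filaments, stood at 9.90 to 18 CPM in control and at 11.4 to 15.5 CPM in UA libraries, and unc-78, whose product (AIP1) assists it, at 25.9 to 31.3 and 27.02 to 30.2 CPM. The remaining genes clik-2 and clik-3 averaged 20.98 and 12.5 CPM in control and 22.04 and 12.96 CPM in UA libraries.

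Over the 21 thin filament genes, 0 passed over all libraries (0.0948% of all genes) and 16 had a log2 fold change below 0 (51.1%), with a median of -0.069. In replicates 1 and 2, 0 passed in the main edgeR fit, and 11 were lower at the paper's thresholds (4.07% of all genes). There 17 were below 0 (52.7% of all genes), with a median of -0.27. In replicates 3 and 4, 0 passed (0.488% of all genes) and 8 were below 0 (48.7%), with a median of 0.081.

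The giant proteins, which span the filaments and hold kinase and immunoglobulin domains, varied widely between libraries. Twitchin, from unc-22, stood at 38.3, 38.5, 23.7 and 54.9 CPM in control 1 to 4 and at 35.7, 21.7, 40.8 and 42.8 CPM in UA 1 to 4. The obscurin-like unc-89 of the M-line stood at 30.4, 31.2, 20.3 and 33.7 CPM in control 1 to 4 and at 27.8, 14.8, 27.5 and 32.0 CPM in UA 1 to 4. The titin-like ttn-1 stood at 15.02, 13.01, 10.9 and 18.6 CPM in control 1 to 4 and at 12.4, 8.35, 15.96 and 16.7 CPM in UA 1 to 4. In all 3 genes UA 2 was the lowest library and control 4 the highest. UA 2 held 56.4%, 47.3% and 64.2% of the levels of control 2, and control 3 held 43.2%, 60.2% and 58.8% of those of control 4.

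The log2 fold changes over all libraries were smaller than their standard errors, at -0.14 ± 0.26 for unc-22, -0.18 ± 0.23 for unc-89 and -0.11 ± 0.23 for ttn-1. Since these genes are long, transcript length was set beside them. The 9 sarcomere genes with more than 5000 exon bases had a median relative log2 level of -0.55 in UA 2 and -0.30 in control 3, whereas the 367 genes tested of that length had medians of -0.046 and -0.006. The 41 shorter sarcomere genes had medians of -0.20 and -0.083. Whether transcript length had a part in the low values was not tested.

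The immunoglobulin-repeat gene dim-1, whose product stabilizes the attachment of the myofilaments, was the most abundant of this group per length. It stood at 33.9, 31.7, 24.2 and 31.3 CPM in control 1 to 4 and at 25.2, 21.2, 34.6 and 35.4 CPM in UA 1 to 4. Both UA values were below both control values in replicates 1 and 2 and above them in replicates 3 and 4. The log2 fold changes were -0.50 ± 0.12 (adjusted p = 0.0692, or 0.0427 with the replicate block) and 0.34 ± 0.12 (0.432, or 0.32), and their difference was -0.84 ± 0.17 (0.142, or 0.0803), by edgeR's quasi-likelihood test. Of the 4 genes in this group, 0 passed in the main edgeR fit. Without the filter on low counts, edgeR called dim-1, unc-22 and unc-89 lower in replicates 1 and 2, where 3.71% of all genes were called. That fit also called dim-1 higher in replicates 3 and 4, where 2.46% of all genes were called. DESeq2 called dim-1 lower in replicates 1 and 2 and in the difference between the sets. A separate edgeR fit of replicates 1 and 2 called dim-1 lower as well.

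Among the attachment genes, atn-1 was higher in all 4 UA libraries. It encodes alpha-actinin, which crosslinks actin in the dense body, and lies on chromosome V, 12478411 to 12484449, plus strand. It stood at 41.6, 41.0, 42.8 and 48.9 CPM in control 1 to 4 and at 56.6, 56.5, 50.9 and 50.8 CPM in UA 1 to 4. Neither control 3 nor UA 2 was low, and the gap between the groups was widest in replicates 1 and 2. The log2 fold change was 0.30 ± 0.070 over all libraries by edgeR's quasi-likelihood test (adjusted p = 0.238, with 0.13 under the replicate block). By DESeq2 the adjusted p was 0.0247, and over all the alternatives tried it ranged from there to 0.645, reached without UA 1. Within replicates 1 and 2 the log2 fold change was 0.45 ± 0.072 (0.0083, or 0.0173 with the replicate block). In replicates 3 and 4 it was 0.15 ± 0.072 (0.588), and the difference between the sets was 0.30 ± 0.10 (0.414). Without any single one of control 1, control 2, UA 1 or UA 2 the adjusted p in replicates 1 and 2 was 0.0685 to 0.0961, with log2 fold changes of 0.44 to 0.46.

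The integrin genes that anchor the same structures were not called for UA by edgeR's quasi-likelihood test in the fit of all 8 libraries. The beta integrin pat-3, the most abundant attachment gene per length, stood at 234, 245, 221 and 219 CPM in control 1 to 4 and at 219, 228, 209 and 227 CPM in UA 1 to 4, with overlapping groups and a log2 fold change of -0.057 ± 0.049. The alpha integrin pat-2 stood at 7.57 to 12.1 CPM in control and at 7.68 to 10.5 CPM in UA libraries, and without control 3 or control 4 it was called lower in replicates 1 and 2 (log2 fold change -0.45, adjusted p = 0.0401 and 0.0441 by edgeR). Vinculin, from deb-1, stood at 16.3 to 24.1 CPM in control and at 16.3 to 23.2 CPM in UA libraries, and the basement membrane perlecan, from unc-52, at 23.7 to 31.2 and 19.5 to 28.7 CPM.

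Adaptor proteins link integrin to the filaments. The kindlin homolog unc-112 stood at 34.9, 34.1, 30.4 and 34.2 CPM in control 1 to 4 and at 29.8, 31.5, 28.5 and 31.0 CPM in UA 1 to 4, so that UA was below control at each replicate number, although control 3 lay within the UA range, with a log2 fold change of -0.15 ± 0.065 (edgeR, adjusted p = 0.683). The LIM protein genes unc-95 and unc-97 averaged 4.23 and 15.8 CPM in control and 3.65 and 16.2 CPM in UA libraries. Over the 8 attachment genes, 0 passed over all libraries by edgeR's quasi-likelihood test (0.0948% of all genes). In replicates 1 and 2 atn-1 rose (1.46% of all genes), while 7 had a log2 fold change below 0 (52.7%).

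The myosin chaperone unc-45, which folds the myosin head and is needed for thick filaments to form, did not share the low values. This gene is used in several tissues, and that group had median relative log2 levels of 0.04 in control 3 and -0.012 in UA 2. The level of unc-45 was 82.4, 82.3, 93.02 and 94.4 CPM in control 1 to 4 and 83.6, 90.0, 86.6 and 87.3 CPM in UA 1 to 4. Control 3 and control 4 were the highest libraries and the groups overlapped, with a log2 fold change of -0.019 ± 0.056 over all libraries (edgeR, adjusted p = 0.971). The letter-only matches mlcd-1 and mlck-1 averaged 49.7 and 6.57 CPM in control and 48.0 and 7.04 CPM in UA libraries.

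Grouped by the tissue in which the genes are known to be used, the levels in the low libraries were as follows. The 9 body wall genes had median relative log2 levels of -0.41 in control 3 and -0.39 in UA 2, and their summed level was 395 CPM in control 3 against 651 to 724 CPM in the other controls. The 5 pharynx genes had medians of -0.083 in control 3 and -0.50 in UA 2. The 13 genes used in several muscles had medians of -0.30 in control 3 and -0.34 in UA 2. By median, control 3 was thus low for the body wall genes and those of several muscles, and close to the mean of the 8 libraries for the pharynx genes. The other libraries of replicates 3 and 4 had pharynx medians of 0.36 (control 4), 0.25 (UA 3) and 0.30 (UA 4). Within its own replicate set, control 3 was therefore the lowest for the pharynx genes as well. UA 2 was low by median in each of these groups. Of the body wall genes, tni-1, tni-3 and tnt-3 did not have their lowest control value in control 3. The 13 genes used in several tissues, the actins among them, had medians of 0.04 in control 3 and -0.012 in UA 2. No test was made of these differences between gene groups.

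Replicates 1 and 2 were also set against replicates 3 and 4 with UA accounted for, as a description, since the sets were seen in these data. The edgeR fit called 5 of 50 sarcomere genes, against 14.3% of all genes. The pharyngeal genes myo-1 (log2 difference -0.69 ± 0.16) and tnt-4 (-0.45 ± 0.11), the troponin T gene tnt-3 (-0.81 ± 0.13) and the calponin-like clik-2 (-0.46 ± 0.095) were lower in replicates 1 and 2, and mlc-4 (0.17 ± 0.048) was higher. All 5 pharynx genes had estimates on the lower side. The count was 15 without control 3, against 16.9% of all genes, 2 without control 2 or control 4 and 3 without UA 1, UA 2 or UA 3.

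Muscle genes outside the set were examined in lists by function. Of 44 other muscle structure genes, 42 were in the table and tested, and 0 passed over all libraries. Their median log2 fold change was -0.024, with 25 below 0 (51.1% of all genes). At the paper's thresholds 3 were higher, against 4.12% of all genes, and 0 were lower. These were alp-1 (an ALP/Enigma protein that binds alpha-actinin), lim-8 and lim-9 (LIM proteins of the attachment complex). The level of alp-1 was 21.04, 22.2, 20.1 and 23.2 CPM in control 1 to 4 and 31.5, 26.8, 25.1 and 24.6 CPM in UA 1 to 4, with no overlap. The level of lim-9 was 23.2, 20.8, 18.2 and 21.7 CPM in control 1 to 4 and 28.8, 27.4, 25.9 and 23.6 CPM in UA 1 to 4, again with no overlap. For lim-8 it was 9.35, 8.89, 8.41 and 8.75 CPM in control 1 to 4 and 12.3, 12.3, 10.7 and 9.25 CPM in UA 1 to 4, with UA 4 inside the control range. Each had its highest UA values in UA 1 and UA 2, as atn-1 did. Their log2 fold changes were 0.32 ± 0.092, 0.33 ± 0.094 and 0.33 ± 0.12, with adjusted p-values of 0.371, 0.357 and 0.506 by edgeR's quasi-likelihood test.

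Of 26 genes for muscle excitation and calcium handling, 25 were tested and 0 passed, with a median log2 fold change of 0.047 over all libraries. The calsequestrin gene csq-1, whose product stores calcium in the sarcoplasmic reticulum, was lowest in UA 2 and next in control 3, with 38.1, 42.1, 22.7 and 34.2 CPM in control 1 to 4 and 32.4, 20.2, 33.2 and 31.9 CPM in UA 1 to 4 (log2 fold change -0.22 ± 0.20). The median relative level of this list was -0.16 in control 3 and -0.26 in UA 2. Of 12 muscle transcription factor and sex muscle genes, 10 were tested and 0 passed, with a median of 0.15. The median relative level of these genes was 0.19 in control 3 and -0.00044 in UA 2. This median rests partly on genes with few counts, since hlh-1, mls-2, ceh-22 and hlh-8 averaged 0.84, 0.67, 0.36 and 0.32 CPM in control.

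Markers of other tissues were read beside these values. The 10 neuron markers summed to 291 to 338 CPM in control and 282 to 349 CPM in UA libraries, with the lowest sums in UA 2 and control 3 and 0 of 10 called. The 10 oocyte and germline markers summed to 13880 to 14300 CPM in control and 13380 to 14710 CPM in UA libraries, 0 of 10 being called for UA. The 10 intestine markers summed to 981 to 1864 CPM in control and 1134 to 1552 CPM in UA libraries. Of these, elt-2 (log2 fold change 1.0) and act-5 (0.81) rose in replicates 1 and 2, against 1.46% of all genes. The median of the 10 markers there was 0.066, and 4 of them were below 0. In replicates 3 and 4 the median was 0.013 and 5 of 10 were below 0, act-5 among them at -0.31 (edgeR, adjusted p = 0.159). The effect on act-5 differed between the sets (1.12), against 0.0802% of all genes. Of 7 epidermis markers tested among 10, 0 passed over all libraries, and the sums were 315 to 342 CPM in control and 252 to 300 CPM in UA libraries, without overlap. At the paper's thresholds 3 (sqt-3, dpy-10 and col-19) were lower, against 1.55% of all genes. The median log2 fold change was -0.517, against -0.074 for the sarcomere genes. One of the 3, col-19, fell in replicates 1 and 2 (-1.05), where 0.751% of all genes did. Sperm markers, of which msp-3, msp-10 and ssp-9 are listed at 0, summed to 3.68 to 5.16 CPM over all libraries, and early embryo markers to 6.30 to 11.7 CPM, with 0 called for UA among the 3 and 5 tested. At the paper's thresholds over all libraries the faint sperm marker spe-11 was higher, averaging 0.14 CPM in control and 0.57 CPM in UA libraries. So was the intestine marker elt-2 (log2 fold change 0.61), against 4.12% of all genes. The part of other tissues in the sarcomere gene values was not tested.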

How the data were processed

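The members and gene lists were chosen with earlier results of these data known. The authors filtered the reads of poly(A)-selected stranded libraries, aligned them to WBcel235 with HISAT (HISAT2 in the submitters' processing notes) and assigned them to RefSeq genes with featureCounts 1.6.2. The deposited values are raw counts per gene, without normalization, and 0 columns of samples were left unmapped. Neither the strand setting nor the treatment of reads with several matches is given in the sources used here. Deposited counts from 20 to below 100 were even in 76% of cases, and those from 1000 to below 10000 in 60.2%, so both reads of a pair appear to have been counted and the number of fragments is lower than the totals. Counts divided by 2 were tried as an alternative chosen after seeing the data. The exon length in bases was deposited by the authors beside the counts.

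Genes were kept by filterByExpr, counts were scaled with the TMM method (factors of 0.964 to 1.031) and tested with edgeR 4.0.16 (glmQLFit and glmQLFTest, R 4.3.3), with Benjamini-Hochberg adjustment over all 13720 genes and a call at an adjusted p under 0.05. DESeq2 1.42.0 was an alternative. Effects within replicates 1 and 2 and within replicates 3 and 4, and their difference, are contrasts of one fit of 4 group means. CPM values use TMM-scaled library sizes, and the relative log2 levels and plotted log2 values were taken from them without a prior count. Only the correlations between libraries given below used log2 levels with a prior count of 2. Tables and plots were made with Python 3.11.15, pandas 2.3.3 and matplotlib 3.10.9. Gene names came from the RefSeq table for 46925 of 46928 identifiers, and 24320 genes had no counts. Between libraries of one condition the chi-square per degree of freedom was 7.56 to 58.4, so none was a copy of another. Control and UA libraries of one number deviated together from the means of their conditions, with correlations of 0.31, 0.246, 0.191 and 0.353, all above 0.1, and the numbers were used as a block in an alternative. Libraries of different numbers within a set correlated to a similar degree (control 1 with UA 2 at 0.192, control 2 with UA 1 at 0.333, control 3 with UA 4 at 0.15, control 4 with UA 3 at 0.311), so these values do not separate pairing by number from the sets. The methods state that controls were grown in parallel, not which numbers belonged together.

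By rule, values in all libraries were given for members with an adjusted p under 0.05 in a UA comparison, for members that met the paper's fold change of 1.2 and unadjusted p of 0.05 over all libraries, and for the most abundant member of each role per length. Further members, and csq-1 and the tissue markers, were named after their values were seen. Alternatives were DESeq2, other size factors, total counts, no filter, CPM of at least 1 in 4 libraries, each library left out, the block, a covariate for the replicate sets, separate fits, the paper's thresholds, and the set without letter-only matches or without near-identical copies.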

Additional observations from a re-analysis of the deposited data

Results flagged for a closer look

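In 4 libraries of one condition, a sample was singled out where its gap to the nearest of the others was too large a share of the whole range by Dixon's criterion. Among the 100 groups tested (50 genes in each condition) 6 samples met it, and chance alone would single out about 1 in 20 groups. Control 3 was the low sample for 3 genes: unc-54 at 127 CPM, unc-15 at 90.6 CPM and unc-112 at 30.4 CPM. Control 4 was low for mlc-5 at 98.8 CPM, UA 2 was low for clik-3 at 9.85 CPM, and UA 4 was high for unc-95 at 4.31 CPM. The remaining controls held 253 to 271 CPM of unc-54, 143 to 146 CPM of unc-15 and 34.1 to 34.9 CPM of unc-112. The effect of UA differed between replicates 1 and 2 and replicates 3 and 4 for 0 of 50 genes at an adjusted p of 0.05 by edgeR's quasi-likelihood test.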

How the results depend on the processing

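Counts are of 50 sarcomere genes, with the share of all genes tested in parentheses. Over all 8 libraries the count of called sarcomere genes, 0, was 1 with DESeq2 (1.2%) and 2 at the paper's thresholds (5.67%), and 0 to 0 when each library was left out. The median log2 fold change of -0.074 ranged from -0.131 to 0.00606 when each library was left out. In replicates 1 and 2 the count of 2 (2.21%) was 8 with DESeq2 (3.43%), 19 without the filter on low counts (3.71%), 12 in a separate fit of these 4 libraries (3.98%), 18 at the paper's thresholds (10.1%), 1 without the actin and light chain copies, 7 with the replicate block (2.12%), and 0 to 15 when each library was left out. In replicates 3 and 4 the count of 0 was 6 without the filter (2.46%), 3 at the paper's thresholds (6.85%) and 0 to 16 when each library was left out. For the difference between the sets the count of 0 was 5 with DESeq2 (0.889%), 17 without the filter (1.98%), 17 at the paper's thresholds (7%) and 0 to 21 when each library was left out. For replicates 1 and 2 against 3 and 4 the count of 5 (14.3%) was 9 with DESeq2 (15.8%), 10 without the filter (9.69%), 9 at the paper's thresholds (15.9%) and 2 to 15 when each library was left out. The paper's thresholds use an unadjusted p, taken here from edgeR and in the paper from DESeq2, and the cause of the other shifts was not tested. Other size factors, total counts, the stricter filter, halved counts and the covariate for the replicate sets left each count within 1.5 times. The replicate block left the counts of 0 over all libraries, in replicates 3 and 4 and for the difference between the sets unchanged, and was not run for replicates 1 and 2 against 3 and 4. Where leaving out a library left 1 sample in a set, that sample was assumed to vary like the others. Each condition had 4 populations, calls in replicates 1 and 2 rest on pairs of libraries, and the biological coefficient of variation was 0.16.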
